A study of Homo sapiens with 6 samples.

Results

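The 73 genes described here carry symbols of the histone gene clusters, HIST1H to HIST4H, and were taken by symbol from the 23346 genes of the count table. They comprised 6 genes of the linker histone H1 and 18 of H2A, 20 of H2B, 14 of H3 and 15 of H4, the core histones. Their mRNAs were counted by poly(A) RNA-seq in BT549, a human breast cancer line of mesenchymal character labelled as wild-type, after transfection with NC siRNA (the negative control, 3 libraries) or BNC2 siRNA (3 libraries). BNC2 encodes the zinc finger protein basonuclin-2, and the comparison asks which transcripts respond to its knockdown. Both groups received 20 nM siRNA and were collected at 6 d. By the study's methods the BNC2 siRNA was an equal mix of 3 siRNAs from GenePharma. The labels name Lipofectamine 2000 as the transfection reagent and the methods name RNAiMax. The study's methods call the replicates biological. Neither they nor the labels say how far the cultures were handled apart, and p-values measure the spread between these libraries.

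Nucleosomes wrap DNA around H2A, H2B, H3 and H4, and H1 binds the DNA that enters and leaves them. Cluster histone genes are mostly transcribed while DNA is replicated, and their mRNAs usually end in a conserved stem-loop that is bound by SLBP in place of a poly(A) tail. Some of these genes also produce polyadenylated mRNAs, for example in cells that have left the cell cycle. A poly(A) library is therefore a partial view of these transcripts, and a lower count in it can be a change in the total amount of a histone mRNA or in the share that carries a poly(A) tail, which cannot be told apart here. Fewer cells that express a gene and less RNA per cell cannot be told apart in bulk libraries either.

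The stem-loop is the element that sets these mRNAs apart. In GENCODE release 44 lifted to GRCh37, 69 of the 73 symbols matched 1 gene, and 67 of these had a coding model. Each of the 67 had a stem-loop of 16 bases within 200 bases after the stop codon, at a distance of 22 to 67 bases (median 35). The next lines give the stem-loops of HIST1H1C and HIST1H2BK, the members with the largest falls among the 12 tested, of HIST2H2BE from the chromosome 1 cluster and of the tested H4 gene, each 5′ to 3′ on the strand of the gene, with the 4 bases of the loop in capitals.
HIST1H1C, chr6:26055972-26055987, minus strand: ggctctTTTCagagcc
HIST1H2BK, chr6:27114145-27114160, minus strand: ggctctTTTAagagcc
HIST2H2BE, chr1:149857738-149857753, minus strand: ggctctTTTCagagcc
HIST1H4C, chr6:26104545-26104560, plus strand: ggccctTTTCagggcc
The form printed for HIST1H1C was carried by 39 of the 67 genes, the HIST1H2BK form by 9 and the HIST1H4C form by 9.

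The annotation also lists mRNAs that run past the stem-loop. Among the 11 members tested below that have an annotated stem-loop, 6 had an annotated transcript ending more than 100 bases beyond it (HIST1H2AC, HIST3H2A, HIST1H2BD, HIST2H2BE, HIST1H2BJ and HIST1H2BC), against 12 of the 56 other members with a stem-loop. HIST1H1C, HIST1H2BK, HIST1H2AM, HIST1H2AG and HIST1H4C had none in this annotation. RefSeq (GRCh38.p14) differs, with a span of 8566 bases for HIST1H2BK but of 519, 510 and 480 bases for HIST1H2AC, HIST3H2A and HIST1H2BJ. Its spans exceed 1000 bases in 4 of the 12 members tested and in 6 of the other 61.

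The libraries held 16093978 to 18246254 counts each, and 1 CPM (counts per 1000000 counts of a library) was 16.1 to 18.3 counts. The mean level of BNC2 itself was 58.6 ± 7.07 CPM (SD, n = 3) in the control and fell after its siRNA to 37.9 ± 3.25 CPM (SD, n = 3), or 64.6% (edgeR's quasi-likelihood test, adjusted p = 8.2e-06). The mesenchymal markers VIM, FN1, CDH2 and ZEB1 were present in both groups, at 120 to 3024 CPM with NC siRNA. All 4 were higher with BNC2 siRNA (edgeR's quasi-likelihood test, adjusted p of at most 0.05). Of these, CDH2 rose most, from 152 to 391 CPM (log2 fold change 1.36, adjusted p = 1.53e-12, edgeR). The epithelial markers CDH1, EPCAM and ESRP1 were at or near 0, and KRT18 was at 4.63 CPM with NC siRNA and 0.456 CPM with BNC2 siRNA. PTPRC, PECAM1 and VWF, of blood and endothelial cells, were at most 0.296 CPM on average. The macrophage marker CD68 rose from 117 CPM with NC siRNA to 144 CPM with BNC2 siRNA (log2 fold change 0.29, adjusted p = 0.00041, edgeR).

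Of the 73 members, 17 had no count in any library, among them members named as copies of each other such as HIST2H4A and HIST2H4B. The deposited counts leave out reads that map to several places, and whether such reads came from these genes was not tested. A further 44 had a count but did not exceed 1 CPM in at least 3 of the 6 libraries, so 12 were tested. These were HIST1H1C, 4 H2A genes, 6 H2B genes and HIST1H4C. No H3 gene was tested.

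**Figure D1:**
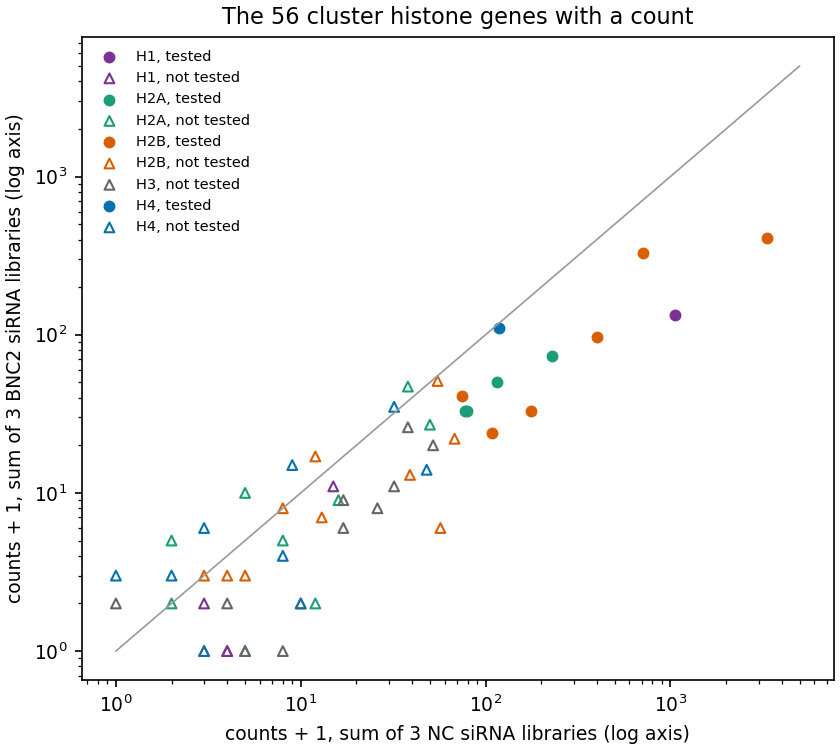
Counts of the 56 members with a count, as the sum of 3 NC siRNA libraries plus 1 (x axis, log) against the sum of 3 BNC2 siRNA libraries plus 1 (y axis, log). Each point is a gene, colours are histone types, filled points are the 12 genes tested and the line marks equal counts. Of the 44 genes not tested, 31 had a lower mean CPM with BNC2 siRNA and 13 a higher one.

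The cluster histone transcripts were lower with BNC2 siRNA in every type summed, with the smallest fall in H4. All members together summed to 131.6, 141.5 and 139.2 CPM with NC siRNA and 36.2, 33.1 and 33.7 CPM with BNC2 siRNA, without overlap. The mean with BNC2 siRNA was 25.0% of that with NC siRNA. Of the 12 members tested, 11 fell and 0 rose (edgeR's quasi-likelihood test, adjusted p of at most 0.05). By the same call 36.2% of all 12186 genes tested fell and 36.6% rose, so a change as such was common in this comparison. The median log2 fold change was -1.42 for the members and 0.00 for all genes, 10 members fell by at least 2-fold (10.1% of all genes), 5 by at least 4-fold (2.83% of all genes) and 0 by at least 8-fold (0.993% of all genes). In 11 members the 3 BNC2 siRNA libraries lay below the 3 NC siRNA libraries, which was so for 37.2% of all genes, while libraries did not overlap in either direction for 74.9%.

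Of the 12 tested members, 4 (HIST1H2AM, HIST1H2AG, HIST1H2BJ and HIST1H2BC) exceeded 1 CPM only in NC siRNA libraries, so that they could enter the test only by being lower with BNC2 siRNA. The counts and the median over the 12 include them, with 2 of the 5 falls of at least 4-fold, and are given as a description only. The 6 members above 1 CPM in all 6 libraries do not share this limit. Of these, 5 fell (HIST1H1C, HIST1H2AC, HIST1H2BK, HIST1H2BD and HIST2H2BE), with a median over the 6 of -1.81, and HIST1H4C was not called. Of all 11326 genes above 1 CPM in all 6 libraries, 34.5% fell. Without NC siRNA replicate 1, 2 or 3 in turn, the filter left 8 members to test, of which 7, 6 and 7 fell. Over all genes, 8596 of 11846, 8084 of 11842 and 8154 of 11837 were then called in either direction.

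RNAs of other kinds that lack a poly(A) tail were lower in sum, but only 2 of the 8 in the table were tested, and 1 of these was called. The 8 RNAs, of which RPPH1 and RMRP (the RNAs of RNase P and RNase MRP) were tested, summed to 10.8, 6.39 and 10.5 CPM with NC siRNA and 3.78, 5.02 and 5.03 CPM with BNC2 siRNA, or 49.9% of the control, without overlap. RPPH1 fell from 2.99 ± 0.825 to 1.32 ± 0.529 CPM (log2 fold change -1.17, adjusted p = 0.00187, edgeR), and RMRP was at 3.04 ± 0.618 and 2.15 ± 0.347 CPM (-0.50, adjusted p = 0.0503). Both were called without NC siRNA replicate 2 or without BNC2 siRNA replicate 3. The part of carried-over RNA without a poly(A) tail in the change of the histone mRNAs was not tested.

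**Figure D2:**
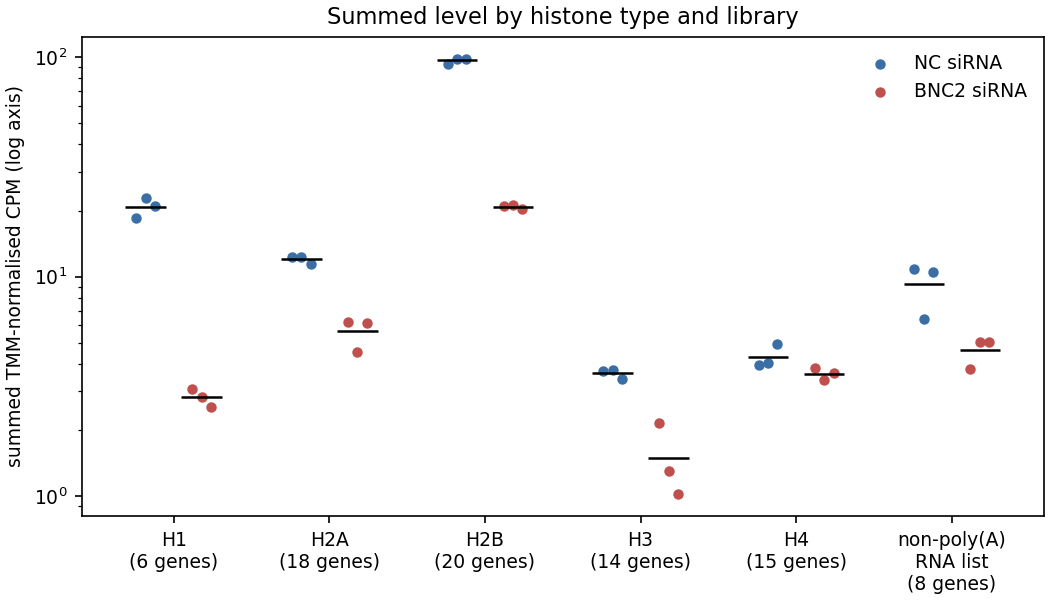
Summed TMM-normalised CPM (log axis) of each histone type and of the RNAs without a poly(A) tail in each library. Points are libraries and bars the group means. The sum over H2B was 93.2 to 98.5 CPM with NC siRNA and 20.3 to 21.1 CPM with BNC2 siRNA, and only the H4 sums lay close together.

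The linker histones were represented by 1 gene. HIST1H1C encodes one of the main H1 proteins of dividing and resting cells and lies at chr6:26055968-26056698 (GRCh37, minus strand), with a single exon. With NC siRNA it had 320, 403 and 341 counts, and with BNC2 siRNA 51, 44 and 37. The highest BNC2 siRNA library thus lay far below the lowest NC siRNA library. In normalised terms, a mean of 20.4 ± 2.28 CPM (SD, n = 3) fell to 2.97, 2.48 and 2.36 CPM, with a log2 fold change of -2.96 (SE 0.14, adjusted p = 1.56e-11, edgeR). Only 1.06% of all genes tested had a fold change this low or lower. The other 5 H1 genes had 0 to 24 counts over the 6 libraries together, with 24 for HIST1H1E, and HIST1H1C made up nearly all of the H1 sum.

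The H2B genes held most of the member reads and the largest fall among the 12 tested members. HIST1H2BK, an H2B gene at chr6:27114140-27114634 (GRCh37, minus strand), was at 61.1, 66.0 and 63.6 CPM with NC siRNA and at 7.44, 9.08 and 7.70 CPM with BNC2 siRNA. The groups did not overlap, and the level fell to 12.7% of the control (log2 fold change -2.97, SE 0.09, adjusted p = 7.5e-14, edgeR). Together HIST1H2BK and HIST1H1C carried 60.1% to 62.6% of all member counts with NC siRNA and 28.8% to 34.9% with BNC2 siRNA. Without both genes, the summed level of the remaining members was 53.5 ± 1.40 CPM with NC siRNA and 23.6 ± 2.11 CPM with BNC2 siRNA, or 44.2% of the control, so the lower sum did not rest on these alone.

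HIST1H2BD, an H2B gene at chr6:26158350-26171577 (plus strand), was second in level among the H2B genes. Its level was 12.4, 13.8 and 14.6 CPM with NC siRNA and 6.80, 6.09 and 6.49 CPM with BNC2 siRNA, a fall to 47.4% of the control (log2 fold change -1.08, SE 0.12, adjusted p = 4.46e-07, edgeR). HIST2H2BE, the only tested H2B gene on chromosome 1, at chr1:149856009-149858232 (minus strand), is annotated with a transcript that ends far beyond its stem-loop. It was at 7.72, 7.67 and 7.53 CPM with NC siRNA and at 1.80, 2.03 and 1.85 CPM with BNC2 siRNA, a fall to 24.9% (log2 fold change -2.01, SE 0.16, adjusted p = 9.52e-09, edgeR). Neither gene showed overlap between the groups, and the falls of these H2B genes spanned 2.11-fold to 7.85-fold. Whether the falls differ between genes or histone types was not tested.

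The other 3 tested H2B genes were low, and HIST1H2BJ and HIST1H2BC passed the filter only through NC siRNA libraries, so that their direction was fixed by their entry. Without the filter both were called lower too (adjusted p = 1.06e-15 and 1.15e-08, edgeR). That fit uses the same counts of genes picked by their entry, so it does not lift this limit. HIST1H2BJ had 46, 59 and 70 counts with NC siRNA and 9, 11 and 12 with BNC2 siRNA (log2 fold change -2.40, SE 0.28). HIST1H2BC had 36, 32 and 39 counts against 4, 10 and 9 (-2.16, SE 0.33). HIST1H2BG had 25, 27 and 22 counts against 10, 13 and 17 (-0.83, SE 0.31), and its adjusted p of 0.0214 (edgeR) was the weakest of the called members. It was not called when BNC2 siRNA replicate 1 (-0.65, adjusted p = 0.0975), BNC2 siRNA replicate 2 (-0.77, adjusted p = 0.0689) or NC siRNA replicate 2 (-0.80, adjusted p = 0.0522) was left out of the edgeR fit. Without HIST1H2BK, the H2B sum was 33.2 ± 1.46 CPM with NC siRNA and 12.7 ± 0.712 CPM with BNC2 siRNA.

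**Figure D3:**
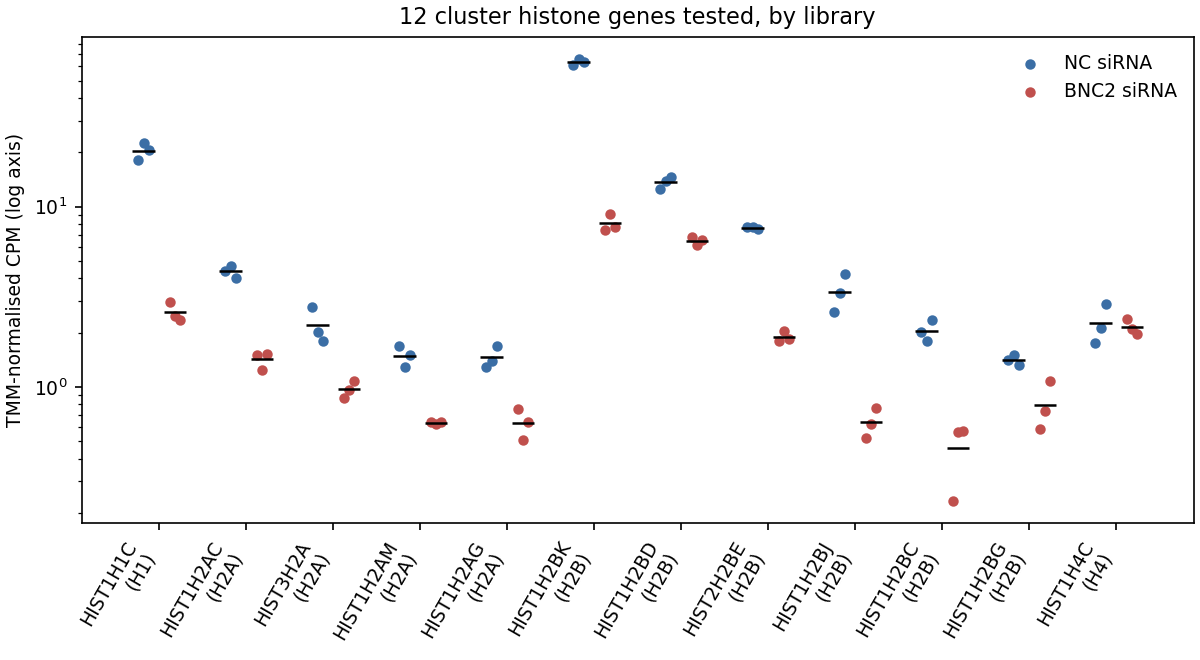
TMM-normalised CPM (log axis) of the 12 members tested, with a point for each library, bars at the group means and the histone type under each name. For 11 genes the 3 BNC2 siRNA libraries lie below all 3 NC siRNA libraries, while for HIST1H4C the BNC2 siRNA libraries (1.97 to 2.38 CPM) lie within the range of the NC siRNA libraries (1.75 to 2.89 CPM).

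The 4 tested H2A genes were also called lower, of which HIST1H2AM and HIST1H2AG passed the filter only through NC siRNA libraries, so that their direction was fixed by their entry. Without the filter both were called lower too (adjusted p = 0.00205 and 0.00309, edgeR). This again uses the same counts and does not lift the limit. HIST1H2AC, at chr6:26124373-26139344 (plus strand), was the highest of these 4 and had the largest fall among them, from 4.39, 4.71 and 4.03 CPM to 1.51, 1.24 and 1.53 CPM (log2 fold change -1.62, SE 0.20, adjusted p = 1.65e-06, edgeR). HIST3H2A, the H2A gene of the small second cluster on chromosome 1 at chr1:228622478-228645574 (minus strand), was at 2.76, 2.02 and 1.81 CPM with NC siRNA and 0.872, 0.959 and 1.08 CPM with BNC2 siRNA (-1.18, SE 0.27, adjusted p = 0.000883). HIST1H2AM, at chr6:27860477-27860963 (minus strand), was at 1.69, 1.29 and 1.51 CPM with NC siRNA and 0.640, 0.621 and 0.637 CPM with BNC2 siRNA (-1.23, SE 0.30, adjusted p = 0.00151). In each of the 3 genes the groups did not overlap, and the level fell to between 32.6% and 44.2% of the control. HIST1H2AG, the remaining tested H2A gene, had 23, 25 and 28 counts against 13, 9 and 10 (-1.19, SE 0.31, adjusted p = 0.00241). The H2A sum was 12.3, 12.3 and 11.4 CPM with NC siRNA and 6.22, 4.51 and 6.18 CPM with BNC2 siRNA, which was 47.0% of the control.

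HIST1H4C was the only tested member that was not called. This H4 gene, at chr6:26104161-26104565 (plus strand), is known as an abundant histone transcript of proliferating cells. It had 31, 38 and 48 counts with NC siRNA and 41, 37 and 31 with BNC2 siRNA, and the libraries of the groups overlapped. Its level was 2.25 ± 0.582 CPM with NC siRNA and 2.15 ± 0.212 CPM with BNC2 siRNA (log2 fold change -0.06, SE 0.23, adjusted p = 0.825, edgeR), with a 95% interval of -0.52 to 0.40, and its value was 0.13 without NC siRNA replicate 3. The H4 sum was 3.94, 4.03 and 4.94 CPM with NC siRNA and 3.84, 3.39 and 3.63 CPM with BNC2 siRNA, or 84.1% of the control. Within this sum, HIST1H4H, which was not tested, went from a mean of 0.901 to 0.255 CPM. Without the filter, the 10 H4 genes with a count had a median log2 fold change of 0.08, so the lower sum was not shared across the type.

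**Figure D4:**
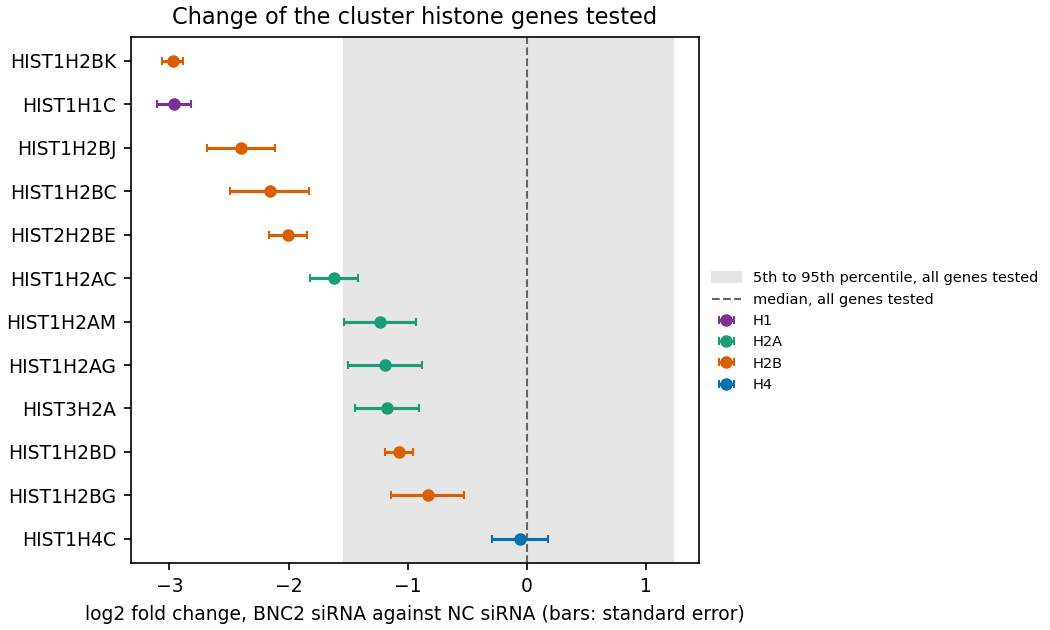
Log2 fold change of the 12 tested members, BNC2 siRNA against NC siRNA, with bars of 1 standard error and colours for histone types. The grey band spans the 5th to 95th percentile of all genes tested, from -1.54 to 1.22, and 6 members (5 of them from -2.97 to -2.01) lie below it.

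The members that were not tested lay near the limit of counting, with at most 33 counts in any library. Together they held 257, 237 and 219 counts with NC siRNA and 166, 108 and 110 with BNC2 siRNA, and their summed CPM was 55.6% of the control. The H3 genes were all in this class. Their sum was 3.72, 3.75 and 3.43 CPM with NC siRNA and 2.15, 1.30 and 1.02 CPM with BNC2 siRNA, or 41.0% of the control, without overlap.

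Without the filter on low counts, 20 of the 56 members with a count were called and each was lower with BNC2 siRNA, beside 26.7% of all 18121 genes lower. They comprised 1 H1, 5 H2A, 9 H2B, 4 H3 and 1 H4 gene. HIST1H2BO, an H2B gene, had 16, 21 and 19 counts with NC siRNA and 1, 2 and 2 with BNC2 siRNA, a 10.9-fold ratio of the group sums scaled to library size (exact 95% interval 4.39 to 34.7, for counting error only). HIST1H3J, an H3 gene, had 13, 22 and 16 counts against 11, 6 and 2 (adjusted p = 0.00949 without the filter), and HIST1H4H, an H4 gene, had 12, 19 and 16 against 6, 4 and 3 (adjusted p = 0.00246). HIST1H2BH, at a similar depth, had 17, 22 and 15 counts against 24, 14 and 12 (log2 fold change -0.04), and HIST2H2AC had 11, 16 and 10 against 15, 16 and 15 (0.39), and neither was called. These 5 genes were chosen after their values were seen.

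Per kilobase of GENCODE exon, the order of levels with NC siRNA began with HIST1H2BK at 128 ± 4.97 CPM per kb, then HIST1H1C at 27.9 ± 3.12 and HIST1H2BD at 15.8 ± 1.28. HIST1H4C followed at 5.57 ± 1.44 CPM per kb. With BNC2 siRNA, HIST1H2BK remained first at 16.3 ± 1.78 CPM per kb, followed by HIST1H2BD at 7.51 ± 0.414, HIST1H4C at 5.31 ± 0.524 and HIST1H1C at 3.56 ± 0.441. By these lengths HIST1H1C went from above HIST1H2BD and HIST1H4C to below both, with no overlap of these means and SDs. The order of HIST1H1C and HIST1H2BD with NC siRNA rests on 861 bases of exon for HIST1H2BD. By its shortest annotated transcript, of 486 bases, HIST1H2BD would be about level with HIST1H1C in the control. The place of HIST1H2BK rests on 495 bases of exon, although its RefSeq span is 8566 bases, and a longer exon length would lower its values. The exons counted by the authors may differ from GENCODE's, above all where a longer transcript exists.

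H2A and H2B genes often lie head to head and share the bases between their starts. In the GENCODE annotation, 11 such pairs start within 600 bases of each other, and in 2 of them both genes were tested. HIST1H2AC and HIST1H2BC, 219 bases apart, had log2 fold changes of -1.62 and -2.16. HIST1H2AG and HIST1H2BJ, 248 bases apart, had -1.19 and -2.40. The level of the partners could be far apart, since HIST1H2AH had 4 counts over the 6 libraries while HIST1H2BK, 251 bases away, had 3728. HIST2H2AC had 83 counts and HIST2H2BE, 236 bases away, had 495.

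H2B promoters are known for an octamer motif bound by OCT1 (POU2F1). ATTTGCAT on either strand was found in the RefSeq promoter windows (GRCh38.p14) of 14 of 18 H2B genes, 11 of 16 H2A genes, 1 of 12 H3 genes, 0 of 6 H1 genes and 0 of 13 H4 genes, against 1.77% of all 35116 windows. A single window was used per gene, and a match shared by neighbours was counted for each of them. The H3 match, of HIST1H3D, lies at the same bases as those of HIST1H2AD and HIST1H2BF (chr6:26199394-26199423). Of the 6 tested H2B genes, 5 had the motif, all but HIST1H2BD. The windows of 30 bases around it in HIST1H2BK, HIST1H2BJ and HIST2H2BE, 3 of the H2B genes that fell, are printed on the strand of the gene, with the motif in capitals.
HIST1H2BK, chr6:27146886-27146915, minus strand: ctcttcaccttATTTGCATgagaggtccta
HIST1H2BJ, chr6:27132824-27132853, minus strand: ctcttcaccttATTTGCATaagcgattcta
HIST2H2BE, chr1:149886710-149886739, minus strand: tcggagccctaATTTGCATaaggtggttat
The motif lay 46 to 47 bases before the start site in these genes, 48 in HIST1H2BG and 123 in HIST1H2BC. That of HIST1H2BJ is also in the window of its partner HIST1H2AG, which fell. Both of these genes passed the filter only through NC siRNA libraries. That of HIST2H2BE is also in the window of its partner HIST2H2AC, which was not called without the filter. HIST1H2BH, not called without the filter either, had the motif 49 bases before its start. HIST1H1C, which fell nearly as far as HIST1H2BK, had no match in its window, and a match is a description of the sequence only. Whether the motif has a part in the falls was not tested. CCAAT on either strand was in 55 of 65 member windows (34.6% of all windows), including all of H1, H2A, H2B and H3 but 3 of 13 H4 windows. TATAAA on either strand was in 43 of the 65 (11.5% of all windows).

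The neighbours on chromosome 6 moved in both directions. Between the first and last member (25723625 to 27861669, GRCh37), 14 other genes were tested, of which 2 fell and 7 rose, with a median log2 fold change of 0.43. Over all genes tested, 36.2% fell and 36.6% rose. BTN3A2 and BTN3A1, butyrophilins of the immunoglobulin superfamily, rose by 1.62 and 1.43 on the log2 scale, and BTN2A1 fell by 0.46. These genes were listed after the data were seen.

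Reads on the strand opposite to the members were few. They numbered 72, 60 and 72 with NC siRNA and 7, 15 and 10 with BNC2 siRNA, or 1.11% to 3.02% of the reads on either strand of the members, against 1.59% to 2.14% over all genes.

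The genes that make and process histone mRNAs moved in both directions. Of 23 tested, 6 rose and 9 fell, with a median log2 fold change of -0.11, beside 36.6% and 36.2% of all genes tested. SLBP, which binds the stem-loop, was at 69.5, 68.2 and 70.7 CPM with NC siRNA and 45.4, 46.5 and 42.6 CPM with BNC2 siRNA (log2 fold change -0.63, SE 0.07, adjusted p = 1.94e-07, edgeR), without overlap. NPAT, the coactivator of histone gene transcription, was at 36.6 ± 6.47 and 42.0 ± 4.33 CPM (0.19, adjusted p = 0.114). CASP8AP2 (FLASH), which acts in processing at the 3′ end, was at 63.8 ± 0.971 and 57.3 ± 5.68 CPM (-0.15, adjusted p = 0.0685). CCNE1, the cyclin whose kinase activates NPAT, fell by 0.85 on the log2 scale, while the cleavage factor genes CSTF2T, CPSF2 and SYMPK rose by 0.75, 0.73 and 0.70.

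**Figure D5:**
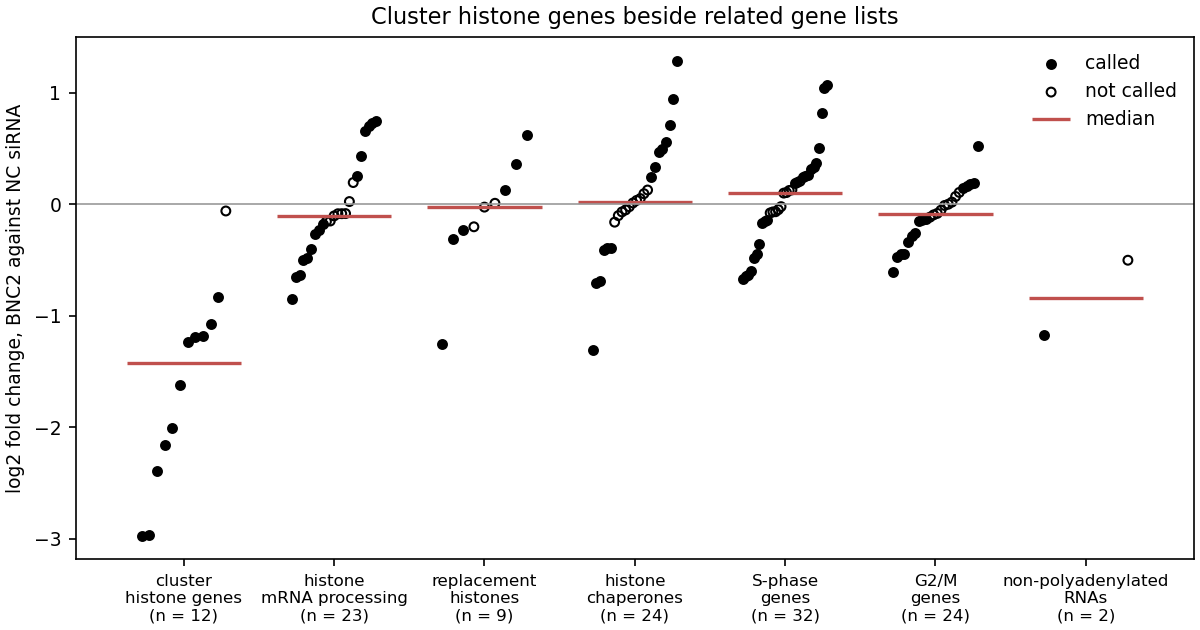
Log2 fold change of each tested gene (points, filled where called) in the cluster histone genes and 6 related lists, with red lines at the list medians. The 12 cluster histone genes tested, 4 of which passed the filter only through NC siRNA libraries, have a median of -1.42. The lists of histone mRNA processing, replacement histones, chaperones, S-phase and G2/M genes have medians of -0.11 to 0.10. For the 2 tested RNAs without a poly(A) tail the median is -0.84.

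Histone genes outside the clusters, whose mRNAs are ordinarily polyadenylated, also moved in both directions. Of 9 tested, 3 rose and 3 fell, with a median of -0.03, beside 36.6% and 36.2% of all genes tested. H2AFX, whose protein marks DNA breaks when phosphorylated and whose mRNA can end in either a stem-loop or a poly(A) tail, fell from 128 ± 13 to 53.9 ± 6.14 CPM (log2 fold change -1.25, adjusted p = 1.46e-09, edgeR). H2AFJ and H2AFY (macroH2A) rose by 0.62 and 0.36, and H3F3B, a source of H3.3, fell by 0.32. H1F0, the replacement linker histone, was at 475 and 467 CPM (-0.03, adjusted p = 0.686), and was chosen for mention after its value was seen.

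Histone chaperone genes were divided, with 8 of 24 tested higher and 6 lower (median 0.02), beside 36.6% and 36.2% of all genes tested. HIRA, which deposits H3.3 outside replication, fell from 84.3 to 34.1 CPM (log2 fold change -1.31, adjusted p = 4.04e-11, edgeR), and CABIN1, a subunit of the same complex, rose from 49.9 to 122 CPM (1.29, adjusted p = 1.72e-11). MMS22L and IPO4, a replication repair factor and an importin for histones, rose by 0.94 and 0.71.

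Genes of the replicating cell were divided too. Of 32 S-phase genes tested, 12 rose and 10 fell (median 0.10). For these and the G2/M genes below, the shares over all genes tested were 36.6% higher and 36.2% lower. The replicative helicase genes GINS4 and GINS1 and the polymerase gene POLE rose by 1.07, 1.04 and 0.82, and the flap endonuclease gene FEN1 fell by 0.68. Of 24 G2/M genes, 5 rose and 9 fell (median -0.09), among them BUB1, which rose by 0.52, and KIF23, CCNB1 and PLK1, which fell by 0.61, 0.48 and 0.44. In G2/M genes 1 rose and 7 fell without NC siRNA replicate 3. Scaled by total counts alone, without TMM, which moved the median of all genes to -0.07, 1 G2/M gene rose and 14 fell. The same scaling gave 6 higher and 14 lower for histone mRNA processing, 2 and 4 for replacement histones, 8 and 9 for chaperones and 10 and 11 for S-phase genes. SLBP is counted among both the processing and the S-phase genes, as is CCNE2.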

How the data were processed

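Poly(A) RNA of 6 BT549 libraries (3 NC siRNA, 3 BNC2 siRNA) was sequenced single-end by the authors and aligned with STAR 2.6.1d to hg19 with the iGenomes UCSC annotation. The authors deposited raw counts of uniquely mapped reads per gene on the reverse strand. Reads not assigned to a gene (37.7% to 41.1%: unmapped, mapped to several places, on no annotated exon or ambiguous) entered neither library sizes nor tests. Those mapping to several places, 8.68% to 9.31% with NC siRNA and 9.23% to 9.71% with BNC2 siRNA, are not in the counts, so near-identical histone genes can be counted too low.

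Genes above 1 CPM in at least 3 of 6 libraries (12186) were tested with edgeR 4.0.16 (R 4.3.3, TMM, quasi-likelihood, no replicate block) and called at a Benjamini-Hochberg adjusted p of at most 0.05. The study fitted edgeR's likelihood ratio test, kept here as an alternative with DESeq2 1.42.0, other scalings and filters, a replicate block and each replicate left out. CPM values are TMM-normalised. A library floor of 3 counts was 0.168 to 0.191 CPM, and intervals of counts cover counting error only. The common biological coefficient of variation was 6.16%. With 3 libraries against 3, an exact permutation test cannot go below 0.1.

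The members and gene lists were chosen with earlier results of these data known. Every tested member is described, with library values by rule for the 3 highest of each type and its largest rise and fall. The counts of HIST1H2BJ, HIST1H2BC, HIST1H2BG and HIST1H2AG were added to these. From the other lists, the 4 largest called changes, SLBP, NPAT and CASP8AP2 are named. RMRP and H1F0 are named outside this rule, and other genes of these lists are counted only. Positions and stem-loops come from GENCODE, promoters from RefSeq (65 members matched).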

Additional observations from a re-analysis of the deposited data

How the results depend on the processing

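Each of the 142 values of the 11 called members under alternatives lay below 0, but these members were selected as called lower. For 4 of them, which passed the filter only through NC siRNA libraries, the direction was also fixed by their entry. This count is therefore a description only and does not measure stability. Of 156 member values, 151 kept direction and call, 4 lost the call (all HIST1H2BG, with DESeq2 at -0.84, adjusted p = 0.0675, and without 1 library as given above) and 1 reversed, HIST1H4C at 0.13 without NC siRNA replicate 3 (adjusted p = 0.665, range over libraries left out -0.24 to 0.13). With all 6 libraries, the number of members called was 11 with the likelihood ratio test, DESeq2 size factors, total counts, the replicate block and counts of both strands, 10 with DESeq2, 15 with filterByExpr and 20 without the filter, where 4 H3 genes, 1 H4 gene and 4 RNAs without a poly(A) tail were called. With filterByExpr, 1 H3 gene, 1 H4 gene and 3 of those RNAs were called. Over all genes, 9100 of 12741 were called in either direction with filterByExpr and 9662 of 18121 without the filter. With edgeR's likelihood ratio test, DESeq2 size factors or total counts, 2 of those RNAs were called, and with total counts the log2 ratio of the summed member level was -2.08. Leaving out a library gave 6 to 11 members called (7, 6 and 7 without NC siRNA replicate 1, 2 and 3, where the filter left 8 to test), 2 to 4 H2A and 3 to 6 H2B genes, 8 to 14 G2/M genes and 1 to 2 RNAs without a poly(A) tail. Among all genes, leaving out a library gave 8084 to 8596 called in either direction, of 11837 to 12094 tested. With the genes tested held fixed, chosen after seeing the data, it gave 10 to 11 members. With the replicate block, 9 G2/M genes were called. Same-numbered libraries did not deviate together (correlations -0.256, -0.091 and -0.151), and differently numbered ones had correlations of -0.101 to 0.219. With 3 libraries in a group, these values cannot show whether samples were handled in pairs. NPAT was called without NC siRNA replicate 1 (0.33, adjusted p = 0.00234) and without the filter (0.22, adjusted p = 0.0145), and CASP8AP2 without BNC2 siRNA replicate 3 (-0.23, adjusted p = 0.0133) and with total counts (-0.23, adjusted p = 0.0109). The H3 and H4 genes below the filter had few counts, and the number called depends on the filter.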
